A study of Homo sapiens with 6 samples.

Results

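The comparison described here is that of HCC827GR, a derived line, with HCC827, its parent, 2 of the 6 libraries of the series. HCC827 is an established human lung adenocarcinoma line with an activating EGFR mutation, and HCC827GR descends from it and has become resistant to drugs that block the EGFR kinase. The sample label reads HCC82GR and the count column HCC827GR, and they were taken as the same line. The letters GR are not spelled out, and the labels give neither a drug, a dose, a clone number nor whether inhibitor was present in the culture. Both lines grew in RPMI-1640 with fetal bovine serum and antibiotics. The other 4 libraries are PC-9, a second parental lung adenocarcinoma line, with PC-9GR and PC-9ER, and HCC827ER, and their values are set beside the pair only where stated. The study asked which signalling pathways accompany acquired resistance, and its title names the trefoil peptide TFF3 and the Hippo pathway.

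The EGF receptor, EGFR, signals through the RAS and ERK kinases to a set of immediate early genes and feedback inhibitors, and lung adenocarcinomas with mutant EGFR depend on that signal. Resistant cells are known to use other receptor kinases, to lose epithelial features in an epithelial to mesenchymal transition, or to change the Hippo pathway, a kinase cascade that keeps the coactivators YAP1 and WWTR1 (TAZ) out of the nucleus. The epithelial state is held by transcription factors such as GRHL2 and OVOL1 and opposed by the repressors ZEB1 and ZEB2, which bind E-box sequences in promoters of epithelial genes.

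Each line had 1 library, so no spread between cultures is known and every value below is a size without a test. Total counts were 14529347 in HCC827 and 14975513 in HCC827GR, and 3 counts, the limit that a count of 0 allows, correspond to 0.206 and 0.200 CPM (counts per 1000000 counted in the library). Log2 ratios of CPM were taken with counts under 3 raised to 3. Folds were taken without that floor. Where 1 library had 0 counts, the lower end of the 95% interval of the fold is given as at least. Intervals at 95% cover counting error only. Ribosomal protein genes took 8.50% of the counts in HCC827 and 7.65% in HCC827GR, against 16.1% in HCC827ER. PC-9GR had a Spearman correlation of 0.746 with PC-9 over genes, below the 0.929 of HCC827GR with HCC827 over 12598 genes, so the PC-9GR library stands farther from its parent than HCC827GR does. PC-9GR correlated at 0.804 with HCC827GR and at 0.798 with HCC827, both above its value with PC-9. The parents HCC827 and PC-9 correlated at 0.808. The reason for this order was not tested. The epithelial markers EPCAM, CDH1, KRT7, KRT8, KRT18, KRT19, NKX2-1 and NAPSA were all present in both lines, and their summed level was 17002 CPM in HCC827 and 5646 CPM in HCC827GR.

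Of the 16854 genes in the table, 12598 had at least 1 CPM in the higher of the 2 libraries. Of these, 1062 (8.43%) were at least 2-fold higher in HCC827GR and 1150 (9.13%) at least 2-fold lower, and 10386 (82.4%) differed by less. Below, a gene is called higher or lower only past this 2-fold size. The median log2 ratio was 0.06, with quartiles of -0.30 and 0.40. Past 4-fold there were 410 higher genes and 529 lower ones, and past 32-fold 38 and 63.

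**Figure D1:**
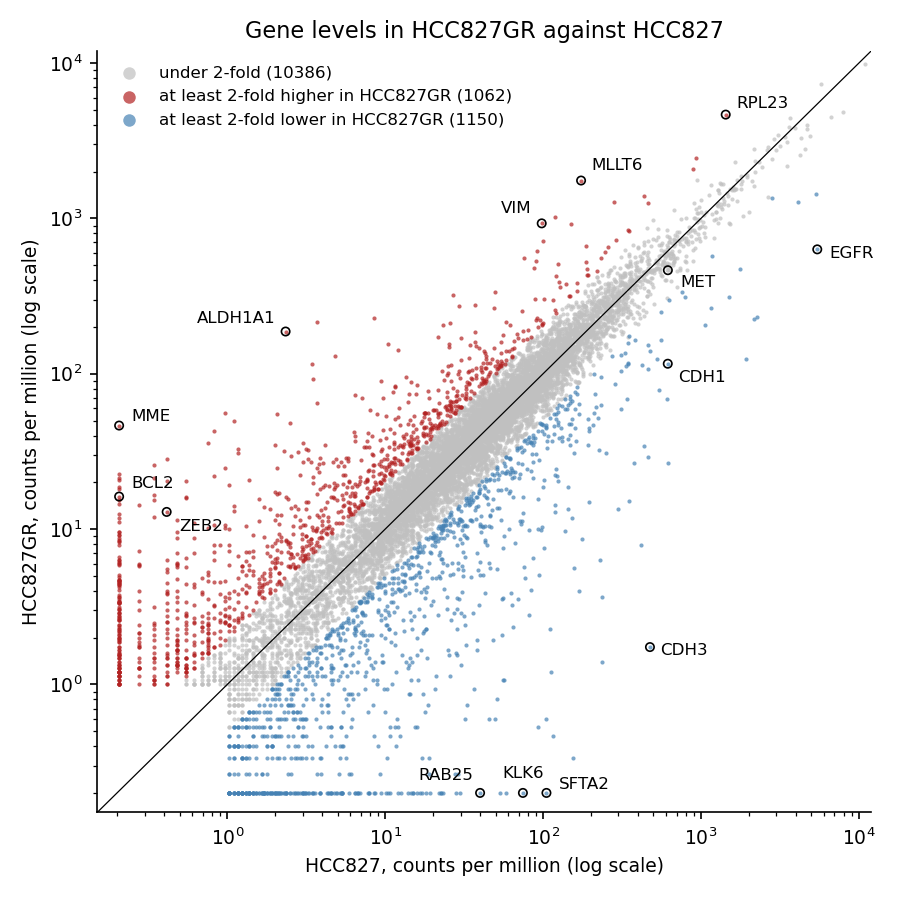
CPM of each gene in HCC827 (horizontal, log scale) and HCC827GR (vertical, log scale), with values under 3 counts drawn at 3 counts and the line of equal levels. Red points are the 1062 genes at least 2-fold higher in HCC827GR and blue points the 1150 at least 2-fold lower, with CDH3, KLK6 and SFTA2 far below the line and MME and ALDH1A1 far above it.

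EGFR and the other ERBB receptors present were lower in HCC827GR. EGFR (chromosome 7) had 5450 CPM in HCC827 and 632 CPM in HCC827GR, 8.62-fold lower (interval 8.44 to 8.81). Of the 18 ERBB list members with at least 1 CPM, 9 were lower and 1 higher, and their median log2 ratio was -0.85. All 3 receptors present were lower. ERBB3, the kinase-impaired partner that recruits PI3 kinase, went from 81.9 to 9.82 CPM, and ERBB2, the receptor without a ligand of its own, from 117 to 40.9 CPM. ERBB4 had 0 counts in HCC827 and 1 count in HCC827GR.

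Among the 6 EGFR ligands present, 5 were lower. AREG, amphiregulin, was at 152 and 11.8 CPM, 13-fold lower. TGFA was at 50.9 and 13.6 CPM, EREG at 312 and 133 CPM, and BTC at 22.4 and 9.48 CPM. HBEGF, the heparin-binding ligand, was the exception, at 19.7 CPM in HCC827 and 44.1 CPM in HCC827GR. NRG1, the ligand of ERBB3 and ERBB4, was at 53.3 and 54.0 CPM, a log2 ratio of 0.02. Of 7 negative regulators of EGFR, CBLC, a ubiquitin ligase, was lower (31.9 to 10.6 CPM) and 6 were under 2-fold.

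ERK-driven genes were more often lower than higher. Of 32 members of the list of MAPK output and feedback genes, 16 were lower and 2 higher, with a median log2 ratio of -0.95. The phosphatases that switch off ERK were split: DUSP6 was at 15.9 and 1.54 CPM, DUSP4 at 30.9 and 5.01 CPM, and DUSP1, which acts on several stress kinases, at 42.5 and 141 CPM. SPRY4, a feedback inhibitor of receptor kinases, was at 18 and 2.27 CPM and was 1 of 6 inhibitors of its kind past 2-fold. Of the 12 ERK-driven transcription factors present, 9 were lower and none higher. ETV1 had 9.91 CPM in HCC827 and 2 CPM in HCC827GR, and EGR1, an immediate early factor, 232 and 62.6 CPM. The membrane protein EMP1 had the lowest ratio of the list, at 81.3 and 2.80 CPM, 29.0-fold lower.

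Genes of the epithelial state were mostly lower. Of 57 epithelial list members with at least 1 CPM, 42 were lower in HCC827GR (73.7%) and 1 was higher (1.75%). Over all genes the shares were 9.13% and 8.43%. The median log2 ratio of the list was -2.40. Transcription factors stood among the lowest. GRHL2 had 840 counts in HCC827 and 3 in HCC827GR, or 57.8 and 0.200 CPM (289-fold lower, interval 98.4 to 1402). EHF was at 92.5 and 0.534 CPM. Of 11 such factors present, 9 were lower and none higher. OVOL1, chosen for mention after its values were seen, had 19.1 CPM in HCC827 and 0 counts in HCC827GR, at least 77.2-fold lower.

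ESRP1, which sets the epithelial pattern of splicing, was at 235 and 1.40 CPM, 167-fold lower (interval 109 to 271), while the other 2 splicing factors of the list were under 2-fold. Among 9 adherens junction and desmosome genes, 6 were lower. CDH3, P-cadherin, went from 475 to 1.74 CPM (274-fold lower, interval 187 to 419), and EPCAM, a surface adhesion protein, from 460 to 29.0 CPM. CDH1, E-cadherin, one of the fixed markers, had a smaller fold, with 8957 counts in HCC827 (616 CPM) and 1732 in HCC827GR, 5.33-fold lower in CPM (interval 5.06 to 5.61). Tight junction genes split 6 lower, 5 under 2-fold and 1 higher. CLDN7 was at 235 and 3.67 CPM and MARVELD3 at 33.2 and 0.735 CPM, whereas CLDN1, claudin-1, was at 25.5 and 155 CPM, the single epithelial list member that was higher.

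All 17 epithelial membrane and trafficking genes present were lower. PROM2, a protein of membrane protrusions, was at 154 and 0.334 CPM (460-fold lower, interval 197 to 1418). RAB25, an epithelial recycling GTPase, had 39.9 CPM in HCC827 and 0 counts in HCC827GR, at least 161-fold lower. Of 5 keratins, which form the epithelial filaments, 3 were lower. KRT8 was at 5359 and 1427 CPM, KRT18 at 4123 and 1281 CPM and KRT19 at 2159 and 225 CPM. KRT7 was under 2-fold, at 4241 and 2562 CPM, as was KRT80, at 454 and 868 CPM.

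The promoters of these genes were read for the E-box letters CAGGTG or CACCTG, which are each other's reverse complement, so each match counts on both strands. Of 33 epithelial list members at least 4-fold lower, 17 had a promoter in the RefSeq table (GRCh38.p14, 250 bases before to 50 after the gene's start), and 7 of the 17 (41.2%) held a match. The share was 46.7% (7 of 15) in the other epithelial list members, 18.6% over all genes with at least 1 CPM, and 20.6% over all RefSeq promoters in the table. Over all genes at least 4-fold lower the share was 33.0%, and over those at least 4-fold higher it was 19.0%. The median GC content was 61.7% in the 17 promoters and 65.3% over genes with at least 1 CPM. The share in the most reduced epithelial genes was not above that in the other epithelial genes. That other group includes members lower by less than 4-fold, so the shares do not compare reduced with unreduced genes. CDH1, CDH3, EPCAM, GRHL2 and ESRP1 were not among the 17, so their promoters were not read. The promoters with the most matches are RAB25, BSPRY and AP1M2, S100A14 is one with a single match, and PROM2, the epithelial gene with the lowest ratio, has none. They are printed 5′ to 3′ on the gene's strand with the matches in capitals, to show how the letters lie near the start.
RAB25 (chr1:156060910-156061209, plus strand): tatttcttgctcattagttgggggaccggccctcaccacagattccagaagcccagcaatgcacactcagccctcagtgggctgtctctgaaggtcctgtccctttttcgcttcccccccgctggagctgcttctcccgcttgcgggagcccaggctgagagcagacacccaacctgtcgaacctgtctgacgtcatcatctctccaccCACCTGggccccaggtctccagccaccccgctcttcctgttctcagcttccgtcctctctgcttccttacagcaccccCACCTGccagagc
BSPRY (chr9:113349291-113349590, plus strand): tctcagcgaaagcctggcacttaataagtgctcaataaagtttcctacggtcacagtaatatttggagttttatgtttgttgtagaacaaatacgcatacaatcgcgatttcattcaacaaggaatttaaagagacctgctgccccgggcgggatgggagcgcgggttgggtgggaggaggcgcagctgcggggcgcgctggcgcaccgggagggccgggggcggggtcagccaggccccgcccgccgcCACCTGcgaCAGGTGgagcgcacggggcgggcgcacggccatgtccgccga
AP1M2 (chr19:10587263-10587562, minus strand): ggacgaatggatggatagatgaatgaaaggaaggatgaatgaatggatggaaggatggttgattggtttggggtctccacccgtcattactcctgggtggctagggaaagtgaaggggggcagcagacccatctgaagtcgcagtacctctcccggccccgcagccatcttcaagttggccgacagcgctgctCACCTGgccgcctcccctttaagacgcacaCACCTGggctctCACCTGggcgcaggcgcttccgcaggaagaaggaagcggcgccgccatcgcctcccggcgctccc
S100A14 (chr1:153616276-153616575, minus strand): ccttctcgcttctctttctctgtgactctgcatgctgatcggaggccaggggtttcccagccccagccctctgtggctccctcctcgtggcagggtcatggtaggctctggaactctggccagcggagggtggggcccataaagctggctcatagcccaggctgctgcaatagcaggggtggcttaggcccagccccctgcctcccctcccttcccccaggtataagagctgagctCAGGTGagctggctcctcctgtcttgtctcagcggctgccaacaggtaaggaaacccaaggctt
PROM2 (chr2:95274199-95274498, plus strand): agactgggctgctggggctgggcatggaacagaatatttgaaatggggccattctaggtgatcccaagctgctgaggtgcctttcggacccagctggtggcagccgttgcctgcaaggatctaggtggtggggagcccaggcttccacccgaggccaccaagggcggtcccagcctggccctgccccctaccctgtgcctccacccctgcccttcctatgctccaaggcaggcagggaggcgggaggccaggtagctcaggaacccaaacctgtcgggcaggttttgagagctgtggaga

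The matches in RAB25 begin 41 bases before and 37 bases after the start, those in AP1M2, a subunit of the epithelial sorting adaptor, 57, 27 and 15 bases before it, and the one in S100A14 14 bases before it. BSPRY, a B-box protein of epithelial cells, has matches 1 base before and 8 bases after the start. Its level was 38.1 CPM in HCC827 and 1.67 CPM in HCC827GR. AP1M2 was at 99.5 and 18.8 CPM and S100A14 at 17 and 0.334 CPM. These letters occur in many promoters and no binding was measured.

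The repressors of the epithelial state did not move as 1 group. Of 10 factors in the list, 5 had at least 1 CPM. ZEB1 was at 6.4 CPM in HCC827 and 36.9 CPM in HCC827GR, 5.76-fold higher, and ZEB2 at 0.413 and 12.9 CPM, 31.2-fold higher. SNAI1 was lower, at 15.6 and 5.07 CPM, SNAI2 was at 25.8 and 20.0 CPM, and TWIST1 had 0 counts in both. Of 25 mesenchymal list members, 9 were higher (36.0%, against 8.43% of all genes) and 7 lower (28.0%, against 9.13%). Their median log2 ratio was 0.61.

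Of the 9 higher mesenchymal genes, 4 were cytoskeletal, 4 were matrix proteins or enzymes and 1, ITGB3, was an integrin subunit. VIM, vimentin, went from 98.0 to 929 CPM (9.48-fold higher), TAGLN, transgelin, from 15.3 to 53.4 CPM, and 4 of 8 cytoskeletal members were higher with none lower. Matrix genes went both ways. SERPINE2, a matrix protease inhibitor, was at 37.7 and 151 CPM, while FN1, fibronectin, was at 146 and 47.6 CPM, TNC, tenascin C, at 287 and 86.5 CPM and PLAU, urokinase, at 525 and 125 CPM. CDH2, N-cadherin, had 3 counts in HCC827 and 4 in HCC827GR. Most markers of stromal and blood cells were under 1 CPM in both lines, and their sums went both ways. In a short panel, the 8 fibroblast markers summed to 7.5 CPM in HCC827 and 4.14 CPM in HCC827GR, with COL1A2, COL3A1, LUM and PDGFRA at 0 in HCC827 and 4 of 8 at 0 in HCC827GR. The leukocyte markers summed to 6.67 and 2.27 CPM (2 and 5 of 7 at 0) and the endothelial markers to 0.963 and 0.334 CPM (1 and 4 of 6 at 0). COL1A1 (6.95 and 3.41 CPM) and CSF1R (6.33 and 2.14 CPM) made up most of the fibroblast and leukocyte sums of that panel. In the wider lists, 2 of 11 fibroblast markers reached 1 CPM and the list summed to 7.92 CPM in HCC827 and 21.0 CPM in HCC827GR, where FBLN1, the matrix protein fibulin-1, was at 0.344 and 16.5 CPM. The wider leukocyte list, with 3 of 14 at 1 CPM, summed to 64.9 and 103 CPM, of which CD68, a lysosomal protein, made up 56.7 and 94.1 CPM and the integrin ITGAM 0.275 and 5.94 CPM. The part of such cells in the mesenchymal values was not tested.

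**Figure D2:**
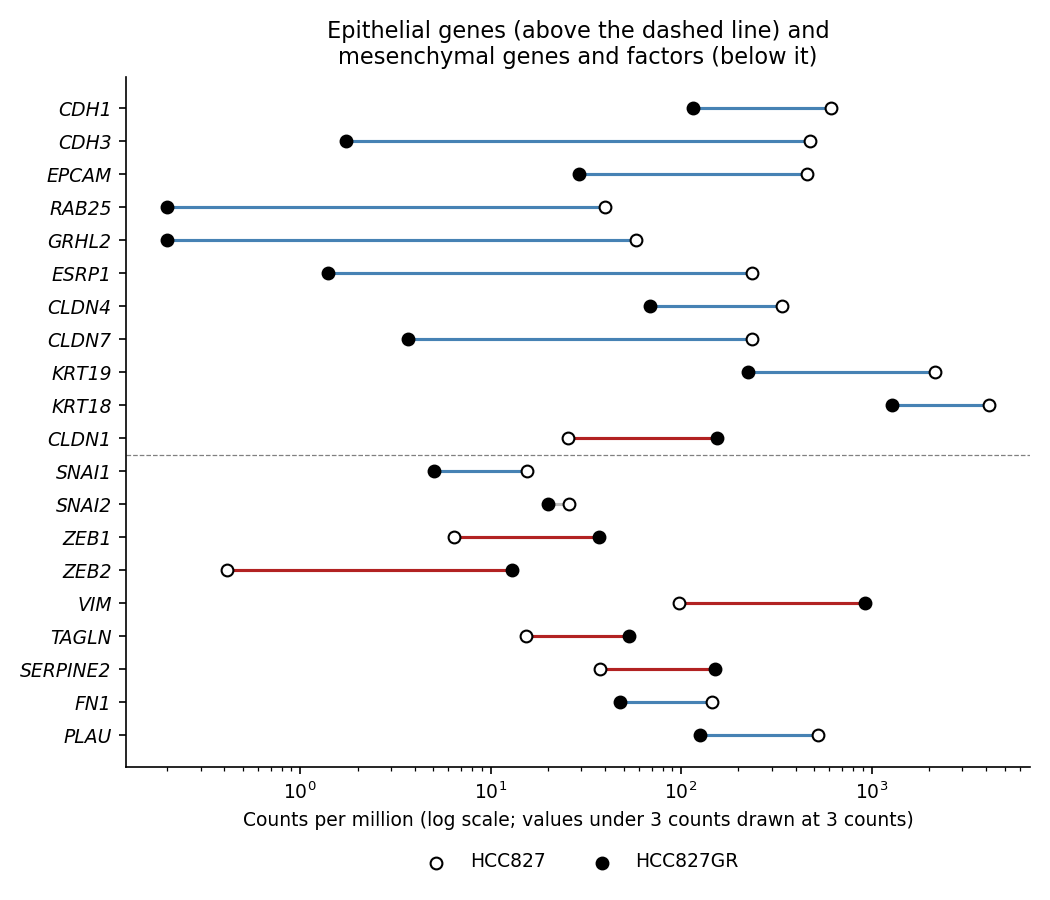
CPM (horizontal, log scale) of chosen epithelial genes above the dashed line and of chosen mesenchymal genes and transcription factors below it. None of the 14 epithelial list members under 2-fold (of 57) is drawn. Open circles are HCC827 and filled circles HCC827GR, 1 library each. Blue bars join genes at least 2-fold lower in HCC827GR, red bars those higher and a grey bar SNAI2, which was under 2-fold.

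Secretory genes of the airway were lower throughout. All 12 members of the list of trefoil factors, mucins and secretory genes with at least 1 CPM were lower, with a median log2 ratio of -4.84. MUC5B, a gel-forming mucin, was at 27.5 and 0.267 CPM (103-fold lower) and the membrane mucin MUC16 at 229 and 6.34 CPM. AGR2, a disulphide isomerase of secretory cells, had 8.47 CPM in HCC827 and 0 counts in HCC827GR, at least 33.9-fold lower. The trefoil factors themselves could not be compared: TFF3, TFF1 and TFF2 had 0 counts in both libraries, which allows up to 0.206 CPM in HCC827 and 0.200 CPM in HCC827GR.

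Proteases and their inhibitors made in epithelia gave a similar picture. Of 14 members present, 11 were lower (78.6%, against 9.13% of all genes) and none higher. KLK6, a kallikrein protease, had 74.5 CPM in HCC827 and 0 counts in HCC827GR, at least 302-fold lower. SERPINB5, maspin, was at 15.1 and 0.200 CPM (3 counts; 75.2-fold lower). Of 13 lung lineage genes, 7 were lower (53.8%) and 3 higher (23.1%, against 8.43% of all genes). NKX2-1, the lung lineage factor, was at 15.2 and 2.74 CPM, SOX9, a factor of the lung bud tip, at 14.2 and 0.868 CPM, and NAPSA, an alveolar protease, at 28.6 and 3.07 CPM. ABCA3, the lipid transporter of surfactant, had 50 counts in HCC827 (3.44 CPM) and 1732 in HCC827GR, 33.6-fold higher in CPM.

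The Hippo cascade had a median log2 ratio of 0.08, near the 0.06 of all genes. Of 36 present, 5 were higher (13.9%, against 8.43% of all genes) and 3 lower (8.33%, against 9.13%). The coactivators were at similar levels: YAP1 had 118 and 108 CPM (log2 ratio -0.12), and WWTR1 227 and 231 CPM (0.02, fold interval 0.969 to 1.07). TEAD1, a DNA-binding partner, was at 94.6 and 96.9 CPM and TEAD4 at 54.5 and 73.8 CPM. VGLL3, a cofactor that competes for TEAD proteins, was lower, at 29.3 and 3.54 CPM. LATS2, the kinase that phosphorylates YAP1, was higher, at 17.8 and 56.0 CPM, and LATS1 was at 17.9 and 28.4 CPM, under 2-fold. AMOT, angiomotin, which binds YAP1, had 1 count in HCC827 and 2.20 CPM in HCC827GR.

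Targets of YAP1 and WWTR1 were more often higher than lower, with a median log2 ratio of 0.44. Of 25 present, 8 were higher, a larger share than the 8.43% of all genes. The 3 lower ones made up a share near the 9.13% of all genes. ANKRD1, a commonly read target, was at 12 and 143 CPM (11.9-fold higher), and DLC1, a GTPase-activating protein, at 0.206 and 4.54 CPM. IGFBP3, a binding protein of insulin-like growth factors, was at 157 and 5.61 CPM, NT5E, which makes adenosine, at 194 and 15 CPM, and F3, tissue factor, at 1063 and 207 CPM. The targets CCN1 (1790 and 1870 CPM) and CCN2 (31.1 and 16.8 CPM) were under 2-fold and were chosen for mention after their values were seen.

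Among receptor kinases that can stand in for EGFR, 4 of 13 were higher (30.8%) and 3 lower (23.1%). Over all genes the shares were 8.43% and 9.13%. FGFR1 was at 36.8 and 277 CPM (7.52-fold higher), AXL, a receptor of GAS6, at 25.3 and 149 CPM (5.88-fold higher), INSR, the insulin receptor, at 7.30 and 33.7 CPM, and FGFR3 at 15.3 and 38.2 CPM. MST1R, a receptor of the MET family, was lower, at 42.8 and 3.87 CPM, as were MERTK at 21.7 and 2.80 CPM and DDR1, a collagen receptor, at 119 and 22.2 CPM. MET was under 2-fold, at 617 and 464 CPM, a log2 ratio of -0.41 (1.33-fold lower, interval 1.29 to 1.37). Of 12 ligands present, 2 were higher. FGF5, a fibroblast growth factor, was at 3.72 and 65.2 CPM, 17.5-fold higher, and GAS6 was at 31.7 and 21.3 CPM.

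BCL2, which blocks mitochondrial apoptosis, was the apoptosis gene with the highest ratio. It had 2 counts in HCC827 and 243 in HCC827GR, or 0.138 and 16.2 CPM. The ratio without the floor was 118-fold (interval 32.3 to 979), and the log2 ratio with 3 counts in place of 2 was 6.30. Of the 29 apoptosis regulators, 4 were higher (13.8%, against 8.43% of all genes) and 4 lower (13.8%, against 9.13%). BMF, a BH3-only activator of death, was at 14.7 and 4.87 CPM. Cell cycle genes hardly moved: of 44, 2 were higher (4.55%) and 1 lower (2.27%), and none of 18 proliferation genes passed 2-fold. TYMS, thymidylate synthase, was at 121 and 246 CPM and CDKN1A, the inhibitor p21, at 9.29 and 4.47 CPM.

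Enzymes that act on aldehydes and drugs went both ways, while the targets of the oxidative stress factor NRF2 stayed near the shares of all genes. ALDH1A1, retinaldehyde dehydrogenase, was at 2.34 and 187 CPM (79.7-fold higher, interval 56.9 to 115), while its relative ALDH1A3 was at 300 and 13.5 CPM, 22.3-fold lower. AKR1C2, an aldo-keto reductase with close paralogs that share reads, was at 0.757 and 35.6 CPM. Among 16 aldo-keto reductases and aldehyde dehydrogenases, 4 were higher and 1 lower. Of 20 drug transport and metabolism genes, 6 were higher and 5 lower, larger shares than over all genes. ABCB1, the drug efflux pump, was at 16 and 85.2 CPM (5.34-fold higher) and ABCG2, another pump, at 7.23 and 2.20 CPM. Of 25 NRF2 targets, 2 were higher and 2 lower. HMOX1, heme oxygenase, was at 21.7 and 173 CPM and SQSTM1, the autophagy receptor p62, at 282 and 1283 CPM.

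**Figure D3:**
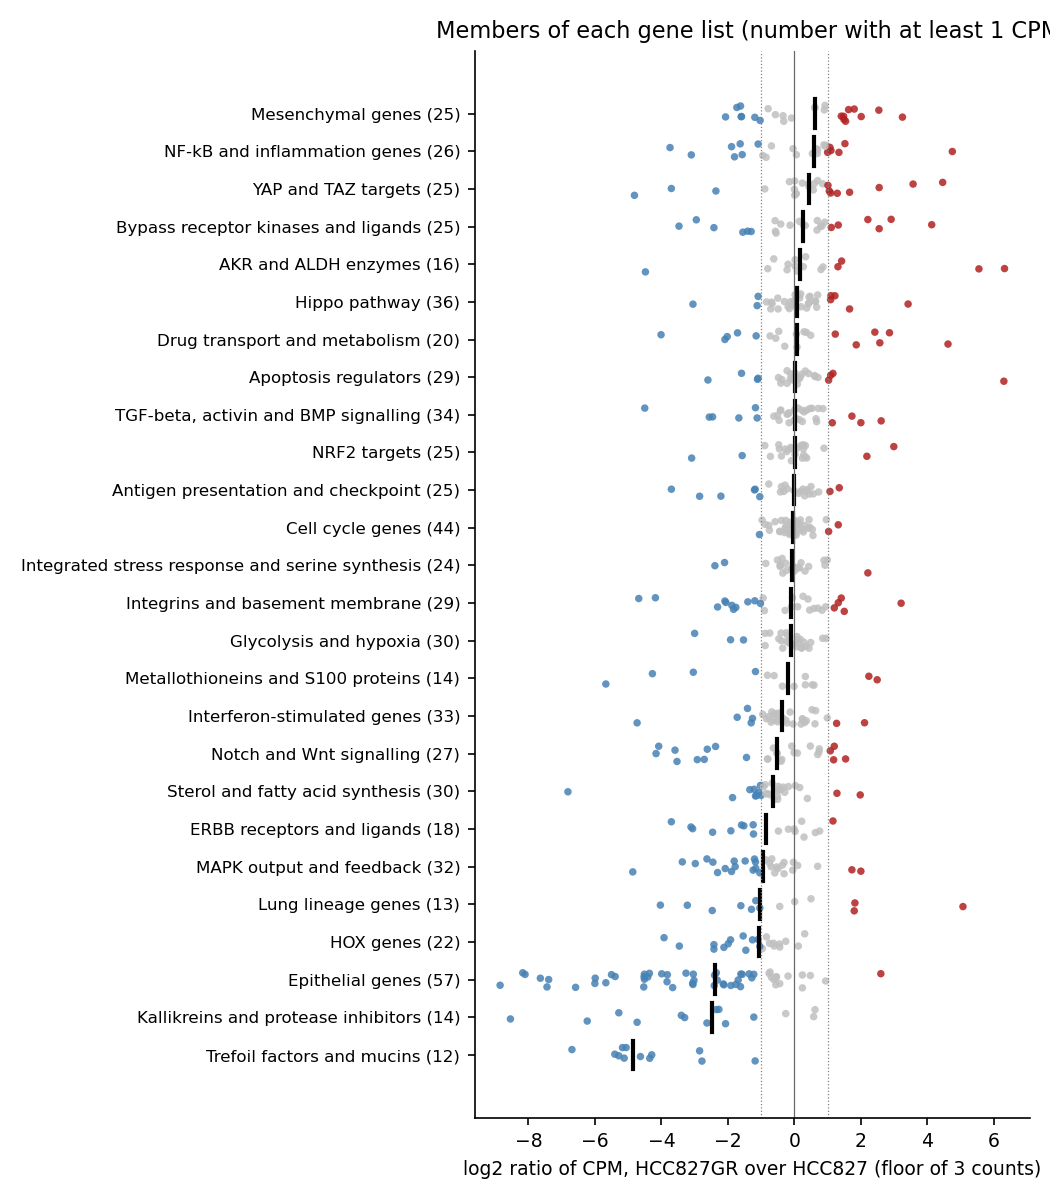
Log2 ratios of CPM (horizontal) of the members of each gene list with at least 12 members at 1 CPM or more, 1 point per gene, with the list's median as a black bar and dotted lines at 2-fold. The medians run from -4.84 for trefoil factors and mucins and -2.40 for epithelial genes to 0.61 for mesenchymal genes, and cell cycle genes lie around 0.

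The genes with the highest ratios among those with at least 10 CPM were led by MME, a membrane peptidase. It had 0 counts in HCC827 and 46.4 CPM in HCC827GR, at least 182-fold higher. DOCK11, an activator of CDC42, had 1 count and 22.5 CPM, and GPC4, a heparan sulphate proteoglycan, 1 count and 21.2 CPM. PPARGC1A, the coactivator of mitochondrial genes, was at 0.344 and 25.7 CPM. COL12A1, a fibril-associated collagen, was at 3.72 and 215 CPM (57.9-fold higher, interval 44.3 to 77.2). The others were CORO2B, TENM3, ALPK2, ALDH1A1, BCL2, SERPINF1, DOCK8, ZSWIM5, IQGAP2 and FMO1, with log2 ratios between 5.93 and 6.64.

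The lowest ratio was that of SFTA2, a surfactant-associated secreted protein, with 1523 counts in HCC827 and 3 in HCC827GR, or 105 and 0.200 CPM (523-fold lower, interval 179 to 2540). SCEL, sciellin, had 53.3 CPM and 0 counts, at least 216-fold lower. LY6D, a surface protein of stratified epithelium, had 1682 counts in HCC827 and 7 in HCC827GR, 248-fold lower in CPM. GALNT3, which starts mucin-type glycans, was at 105 and 0.601 CPM. KRT16, ADGRF1 and GALNT12 were also among the 15 lowest, with PROM2, KLK6, GRHL2, CDH3, RAB25, EHF and ESRP1. Of the 15, 6 are members of the epithelial list.

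Genes at the limit of detection in 1 library were counted apart. 129 genes had at most 3 counts in HCC827 and at least 1 CPM in HCC827GR, and 171 the reverse. Only 12 of the former and 25 of the latter reached 10 CPM. Of the 171 lost genes, 112 had at least 1 CPM in PC-9, and of the 129 gained genes 40 did. The share of all genes with that level in PC-9 was not counted, so neither count is read further.

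The largest losses in CPM, an order that also depends on gene length, were those of EGFR, KRT8, MTRNR2L8, KRT18, MTRNR2L2, VOPP1, KRT19 and SEC61G, and MTRNR2L8 and MTRNR2L2 share sequence with the mitochondrial 16S ribosomal RNA. EGFR, VOPP1 and SEC61G are neighbours on chromosome 7. In a run bounded after the values were seen, from SEC61G to CHCHD2 (chr7:54752253-56106476, GRCh38.p14), 12 of 13 genes with at least 1 CPM were lower, none was higher, and the median log2 ratio was -2.47. SEC61G, a subunit of the protein translocation channel, was at 1936 and 124 CPM, VOPP1 at 2249 and 233 CPM, LANCL2 at 545 and 79 CPM and CHCHD2 at 1513 and 310 CPM. The run summed to 14340 CPM in HCC827 and 2081 CPM in HCC827GR. In HCC827ER, compared with the same parent, the run summed to 7833 CPM. Its median log2 ratio was -0.74, where that of all genes was -0.37. Ratios within the run went both ways in HCC827ER, from -2.35 for EGFR to 0.47 for SUMF2. There EGFR was at 1070 CPM, VOPP1 at 1349, LANCL2 at 275, SEC61G at 1584 and CHCHD2 at 1592 CPM.

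The largest gains in CPM were those of RPL23, EEF1A1, MLLT6, MYH9, LASP1, SQSTM1, PSMB3 and MRPL45. RPL23, MLLT6, LASP1, PSMB3 and MRPL45 lie together in 17q12. In a second run bounded after the values were seen, from AATF to LASP1 (chr17:36948954-38921770), 18 of 23 genes with at least 1 CPM were higher, 2 lower and 3 under 2-fold, and the median log2 ratio was 1.82. MLLT6, a chromatin reader, was at 174 and 1753 CPM (10.1-fold higher), EPOP, a Polycomb partner, at 27.0 and 320 CPM, and MRPL45, a mitochondrial ribosomal protein, at 119 and 1018 CPM. The run summed to 4702 CPM in HCC827, 17705 CPM in HCC827GR and 12245 CPM in HCC827ER. ARHGAP23, inside the run, was lower, at 88.9 and 38.7 CPM, and ERBB2, beyond its end, was lower too. Of 82 ribosomal protein genes, RPL23 was the single higher one, with a log2 ratio of 1.70 against a median of -0.11. RPL23 and EEF1A1 have processed copies elsewhere that can share reads.

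**Figure D4:**
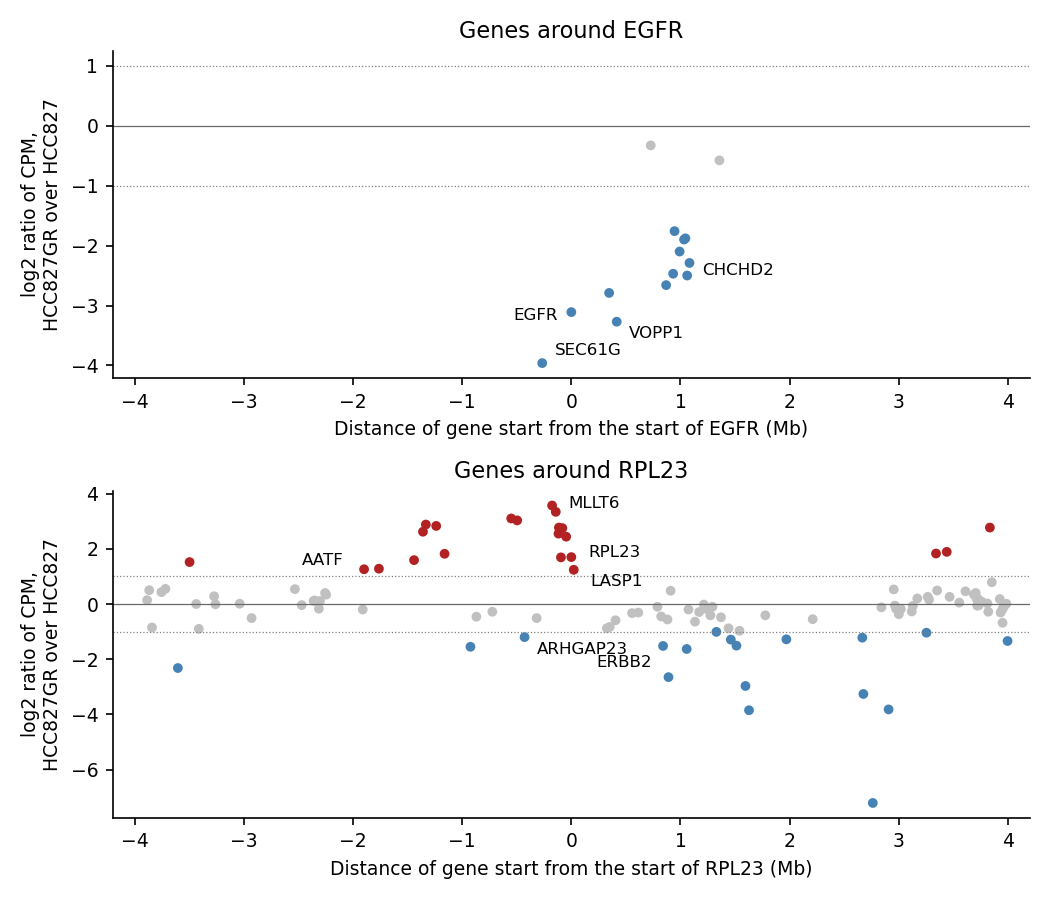
Log2 ratio of CPM (vertical) of genes with at least 1 CPM against the distance of their start from that of EGFR (top) and RPL23 (bottom), in Mb. The EGFR neighbours from SEC61G to CHCHD2 lie below the dotted 2-fold line with 1 exception, and most genes from AATF to LASP1 lie above it, while ERBB2 lies below.

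Chromosome 13 differed from the others as a whole. Of its 189 genes with at least 5 CPM, 172 (91.0%) had a ratio above 0, 71 (37.6%) were higher and 6 (3.17%) lower, and the median log2 ratio was 0.82 with quartiles of 0.50 and 1.16. On the other chromosomes the median was 0.06 over 10720 genes and 6.04% were higher. All 10 windows of 5 Mb on chromosome 13 with at least 10 genes had medians between 0.68 and 1.13, and they were 10 of the 12 highest of 392 windows. In HCC827ER, against the same parent, the median of chromosome 13 was -0.56 and that of the other chromosomes -0.37. Listed genes on it that were higher are COL4A1 (29.4 and 272 CPM) and COL4A2 (190 and 475 CPM), the basement membrane collagen chains, and RB1 (43.7 and 109 CPM), LATS2, ABCC4 and SMAD9. Their part in the medians of their lists was not tested. Chromosomes 2, 7 and X had medians of -0.22, -0.21 and -0.21. No DNA was measured in the files used here.

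**Figure D5:**
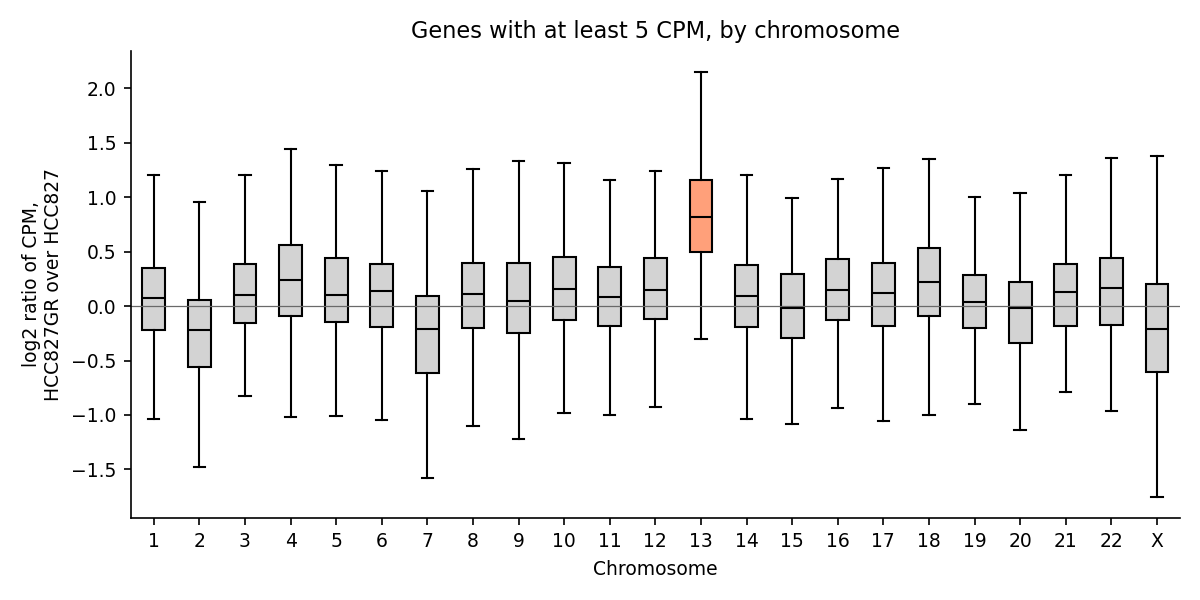
Log2 ratio of CPM of genes with at least 5 CPM, by chromosome. Boxes span the quartiles with the median as a line and whiskers reach 1.5 interquartile ranges, and chromosome 13 (coloured) has its lower quartile at 0.50, above every other chromosome's median.

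Values of the same genes in the other derived lines can be set beside these. PC-9 and PC-9GR share no library with the pair. Over 12002 genes with at least 1 CPM in both pairs, 529 genes were lower in both, which is 53.6% of the 987 lower in HCC827GR (19.6% of all genes were lower in PC-9GR) and 22.5% of the 2354 lower in PC-9GR (8.22% of all genes were lower in HCC827GR). Genes higher in both numbered 394, 45.4% of the 867 higher in HCC827GR (18.9% of all were higher in PC-9GR) and 17.3% of the 2273 higher in PC-9GR (7.22% of all were higher in HCC827GR). Opposite directions were seen in 184 genes higher in HCC827GR and lower in PC-9GR, 21.2% of the 867 and near the 19.6% of all genes. The reverse kind numbered 205, 20.8% of the 987 and near the 18.9% of all genes. The PC-9GR library differed from its parent in more genes, and 1 library stands for each line. By correlation PC-9GR also lay closer to HCC827GR (0.804) than to PC-9 (0.746).

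Summed over the epithelial list, PC-9GR had 10487 CPM against 18172 CPM for its parent. The sum fell in every role, from 4154 to 359 CPM for membrane and trafficking genes and from 9357 to 8393 CPM for keratins. Single genes went both ways. CDH3 was at 216 CPM in PC-9 and 0.112 in PC-9GR, and GRHL2 at 94.3 and 0 CPM, whereas KRT8 was at 2568 and 3629 CPM and KRT18 at 1784 and 2447 CPM. VIM was at 5.27 and 1389 CPM there. In HCC827ER, with the parent shared, CDH3 was at 111 CPM, GRHL2 at 2.60, VIM at 723, ALDH1A1 at 698 and FGFR1 at 137 CPM. MET in HCC827ER was at 94.6 CPM. Whether these lines differ from each other was not tested.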

How the data were processed

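RNA of each line was sequenced after ribosomal RNA depletion with a stranded kit, per the labels' protocols. The deposited tables hold expected counts per gene, of which 13.3% (HCC827) and 13.5% (HCC827GR) were not whole and were rounded. The submitters' processing notes name HISAT2 2.0.4, Cuffdiff and GRCh38.p13, and the counter and its strand setting are not given in the sources used here, so overlapping or near-identical genes can share reads. Values were scaled to CPM on total counts. A gene passed when its log2 ratio, with a floor of 3 counts, reached 1 either way and 1 library had 1 CPM. Intervals are exact conditional (Clopper-Pearson), and reads carry no molecular identifiers. The calculation was tested on simulated data. Coordinates and promoters come from RefSeq (GRCh38.p14), a later patch of the submitters' assembly, and 16723 genes matched. Promoters on chromosome 8 were kept out of the printed sequences, and the shares with a match were taken without that filter. Python 3.11.15 and R 4.3.3 with edgeR 4.0.16 and DESeq2 1.42.0 (scaling factors only) were used.

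Named genes were always EGFR, MET, YAP1, WWTR1 and TFF3, the 15 highest and 15 lowest ratios at 10 CPM or more, the 8 largest gains and losses in CPM, up to 4 members each way of each list with 2 each way per role, and receptors, ligands and coactivators whatever their ratio. Some genes that this rule takes are not reported here. The 35 lists and the genes were chosen with earlier results of these data known.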

Additional observations from a re-analysis of the deposited data

Results flagged for a closer look

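Of 294 named or listed genes past 2-fold in HCC827GR and present in PC-9 or PC-9GR, 8 were past 8-fold in HCC827GR and past 8-fold the other way in PC-9GR against PC-9. This difference between the pairs was not tested, since each line has 1 library, and PC-9GR stands apart from PC-9. Log2 ratios of HCC827GR over HCC827 and of PC-9GR over PC-9 are given in that order. The higher genes in HCC827GR were the proteoglycan gene GPC4 (6.68 and -4.87), the CDC42 activator DOCK8 (6.13 and -3.92), the YAP1-binding AMOT (3.42 and -9.49) and the glucuronosyltransferase UGT1A6 (4.62 and -5.93), which shares exons with other UGT1A genes. The lower ones were the EGFR ligand AREG (-3.70 and 3.15), the cytokine IL11 (-3.74 and 3.39), the prostaglandin synthase PTGS2 (-3.10 and 3.50) and the Wnt antagonist DKK3 (-4.08 and 7.77). GPC4, DOCK8, AMOT and UGT1A6 had 1 count each in HCC827, so their folds are imprecise. In PC-9GR, GPC4 had 1 count too and AMOT 3. Among the lower genes, PTGS2 had 25 counts in HCC827 and 3 in HCC827GR, and its fold interval ran from 2.62 to 44.4.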

How the results depend on the processing

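All 196 list medians recomputed under other scalings, floors, minimum levels or gene sets stayed within the binomial interval of the main median. Several of these intervals are wide, that of the mesenchymal genes running from -0.79 to 1.48. Staying inside them therefore says little about how stable the medians are. TMM, DESeq2 size factors and upper quartile scaling shifted every log2 ratio by -0.06, -0.04 and -0.06. Counts of genes higher and lower moved by over 1.5 times only for the stricter rules. A 4-fold threshold gave 410 and 529, the requirement that the counting interval lie wholly past 2-fold gave 648 and 736, and a minimum of 5 CPM left 746 lower genes. Genes gained and lost at the limit of detection fell to 43 and 70 with 0 counts required and to 29 and 44 with 5 CPM required. Of 1571 recomputed ratios of named genes, 91 left their counting interval and none of those past 2-fold changed direction. Of 69 chromosome medians recomputed under other scalings, 34 left their interval and 3 reversed. The 3 were those of chromosome 19, whose 0.04 became -0.02, -0.00 and -0.02 under TMM, DESeq2 and upper quartile scaling, and that of chromosome 9 went from 0.05 to -0.01 under TMM and upper quartile scaling. No paired analysis was possible because each line has 1 library. Depth limits ratios of genes with 0 to 3 counts, and the spread between cultures is unknown.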

Other observations

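Of 22 HOX genes present, 12 were lower in HCC827GR (54.5%, against 9.13% of all genes) and none higher. Their median log2 ratio was -1.06, and HOXC10 was at 16.4 and 3.07 CPM. Sterol and fatty acid genes had 9 of 30 lower (30.0%) and 2 higher (6.67%, against 8.43% of all genes). INSIG1, the sterol sensor partner, was at 147 and 40.6 CPM. ACACA, which makes malonyl-CoA, was higher, at 347 and 842 CPM, and lies in the 17q12 run. Of 29 integrin and basement membrane genes, 11 were lower (37.9%) and 5 higher (17.2%). ITGB6, an integrin, was at 32.7 and 1.80 CPM. COL17A1, a hemidesmosome collagen, was at 18.8 and 0.735 CPM and LAMB3, a laminin chain, at 461 and 108 CPM.

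Over all genes, 8.43% were higher and 9.13% lower. Inflammation genes went both ways, with 6 of 26 higher (23.1%) and 7 lower (26.9%). The cytokine IL32 was at 8.53 and 230 CPM (27.0-fold higher), while the neutrophil chemokine CXCL1 was at 7.23 and 2.07 CPM. Among 33 interferon-stimulated genes, 5 were lower (15.2%) and 2 higher (6.06%), and BST2, tetherin, was at 54.8 and 2.07 CPM. CD274, the checkpoint ligand PD-L1, was at 18.2 and 3.94 CPM. Glycolysis and hypoxia genes had 3 of 30 lower (10.0%), near the share of all genes, and none higher. Of the lower ones, VEGFA was at 144 and 38.2 CPM and EGLN3, an oxygen-sensing hydroxylase, at 18.1 and 2.27 CPM. Among Notch and Wnt genes, 9 of 27 were lower (33.3%) and 4 higher (14.8%). WNT7A had 3.58 CPM in HCC827 and 0 counts in HCC827GR, at least 17.9-fold lower.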
